A study of Mus musculus with 12 samples.

Results

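The genes described here are those whose difference between Ezh2-/- and wild-type (WT) mouse myeloid cells depended on the stage, dividing progenitor or neutrophil. They were found on 8 of the 12 arrays of the series, in 4 groups of 2, by the interaction: the Ezh2-/- minus WT difference in neutrophils minus the same difference in undifferentiated cells, in log2 units, for each of 65956 transcript clusters (the array's unit for a gene or transcript, control probe sets left out). A cluster was called where limma's moderated test of the interaction gave a Benjamini-Hochberg adjusted p under 0.05 over all clusters. By that rule 1352 clusters were called, and 978 of them carried exactly 1 gene symbol.

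All groups were C57BL/6 mouse bone marrow cells carrying HOXB8 joined to the ligand-binding part of the estrogen receptor (HoxB8-ER), which immortalizes myeloid progenitors as long as estradiol is supplied. The 4 groups were WT undifferentiated cells and Ezh2-/- undifferentiated cells, both kept in 0.5 µM estradiol, and the neutrophils obtained from each 6 days after its removal. The null cells came from Ezh2 null mice and the WT cells from their littermates. Neither the number of lines nor the origin of the replicates is stated, so genotype and cell line cannot be told apart, and the p-values measure only the spread between arrays, which may be technical. The remaining 4 arrays were WT neutrophils given the EZH2 inhibitor GSK343 or vehicle. The sources differ on that drug's dose, and these arrays serve here for description only.

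EZH2 is the methyltransferase of Polycomb repressive complex 2 (PRC2). The complex methylates histone H3 at lysine 27 and keeps many genes of other lineages and stages silent. Its close relative EZH1 can take its place in cells that no longer divide. During granulocyte maturation progenitors stop dividing, lose stem and progenitor transcripts and make their granule proteins in a fixed order, from primary through secondary to gelatinase granules.

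Ezh2 itself had a called interaction. Its signal was 11.57 and 11.65 on the WT undifferentiated arrays and 9.10 and 9.44 on the Ezh2-/- undifferentiated arrays. In neutrophils it was 8.31 and 8.34 on the WT arrays and 8.74 and 9.02 on the arrays labelled Ezh2-/-. The null was thus 5.06-fold lower before differentiation, without overlap, and not lower after it. The interaction was 2.89 (SE 0.233, limma adjusted p = 0.00352). Only 1 cluster stands for Ezh2, and the deleted part is not named in the labels, so the neutrophil value does not check the label, and every neutrophil direction below rests on it.

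Signals are log2 values, for which a difference of 1 is 2-fold, and a group counts as above background where both its arrays exceeded the 95th percentile of the array's 23 antigenomic control probe sets. That background lay between 4.97 and 5.79 on the 8 arrays, and 30.0% to 43.4% of clusters exceeded it. Replicates correlated at 0.984 to 0.994 across clusters. The Ezh2-/- undifferentiated pair was the least alike, with 6.25% of clusters more than 1 log2 unit apart. A fold is given as "at least" where the dimmer group was at or below background on both arrays. The interaction is then a fitted difference and no bound.

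Called interactions made up 2.05% of all clusters, with 898 higher (1.36%) and 454 lower (0.688%). Among clusters with 1 symbol the share was 3.13%, with 2.08% higher and 1.05% lower, and the median interaction was -0.02. The genotype difference alone was called for 8.55% of clusters in neutrophils (5.11% higher and 3.44% lower with the null label) and for 1.61% in undifferentiated cells (0.923% higher and 0.685% lower). Among clusters with 1 symbol these shares were 12% in neutrophils (7.76% higher, 4.27% lower) and 2.42% in undifferentiated cells (1.53% higher, 0.881% lower). Of the 485 clusters called at both stages, 462 differed in the same direction and 23 in opposite directions. Over the 25461 clusters above background in at least 1 group, the 2 genotype differences, which share no array, correlated at 0.359.

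The 1352 clusters were sorted by the stage at which the genotype difference itself was called. In neutrophils only, 1006 were called, 716 of them higher and 290 lower with the null label. A further 230 were called in undifferentiated cells only, with the null higher in 103 and lower in 127. A missing call at the other stage does not show that no difference was there. The difference at that stage was under 1 log2 unit for 691 of the 716, 283 of the 290, 101 of the 103 and 117 of the 127. The direction was opposite at the 2 stages for 23 clusters and the same for 69, and 24 were called at neither stage. Leaving out either WT undifferentiated array lowered the 1352 calls to 284 (without replicate 1) and 240 (without replicate 2). Leaving out replicate 1 or 2 of the neutrophils labelled Ezh2-/- gave 761 and 424, leaving out WT neutrophil replicate 1 gave 730, and leaving out Ezh2-/- undifferentiated replicate 1 gave 2109. The sign was kept by all 1352 in each of these fits.

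**Figure D1:**
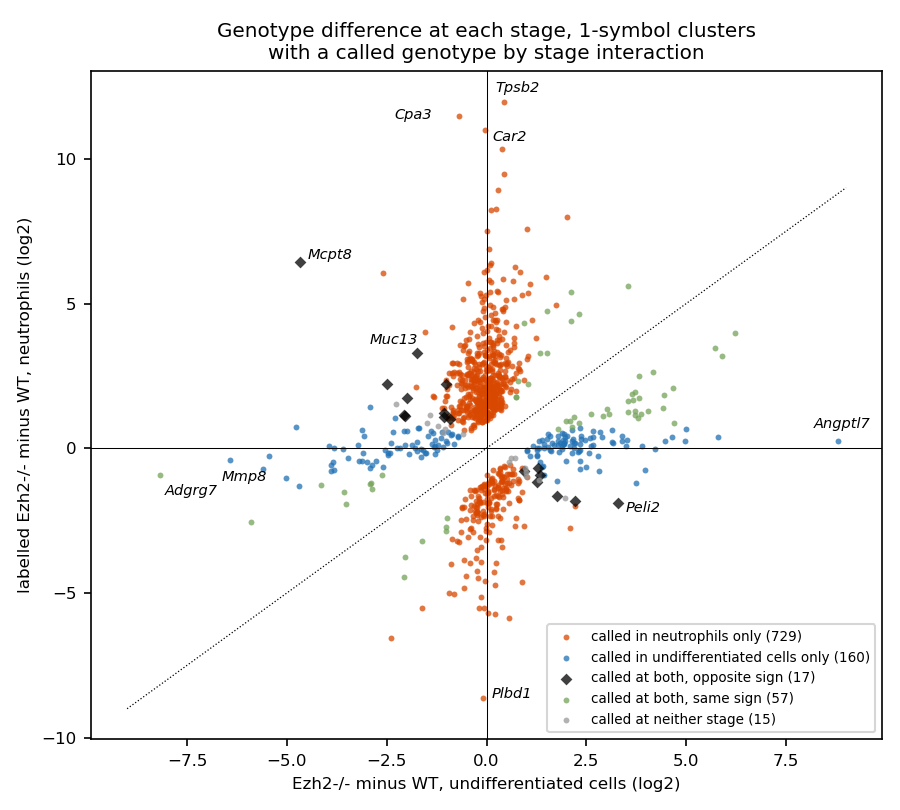
Genotype difference in undifferentiated cells (x axis, log2) and in neutrophils (y axis, log2) for the 978 clusters with 1 symbol and a called interaction, 1 point per cluster, coloured by the stage at which the genotype difference was called. The dotted line marks equal differences. The 729 clusters called in neutrophils only line the vertical axis, and the 160 called in undifferentiated cells only line the horizontal axis.

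Mast cell and basophil genes held the largest interactions among the named genes. Of 19 measured markers 9 had a called interaction (47.4%), all higher, against 2.08% called higher of all clusters with 1 symbol. The median of the list was 4.08 against -0.02 over all of those clusters. Cpa3, the mast cell carboxypeptidase, was bright in progenitors of both genotypes, with 18.75 and 18.86 on the WT arrays and 17.95 and 18.26 on the Ezh2-/- arrays. In neutrophils it was 7.25 and 8.02 on the WT arrays and 19.09 and 19.12 on the arrays labelled Ezh2-/-. The neutrophil groups were 2832-fold apart with no overlap, while the signal fell by 11.17 with differentiation in WT cells (interaction 12.17, SE 0.357, limma adjusted p = 4.23e-05).

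Tpsb2, a mast cell tryptase, followed another course. It was at background on all 6 other arrays, between 4.36 and 5.25, and read 16.44 and 16.45 in neutrophils labelled Ezh2-/-, at least 1987-fold above WT (interaction 11.55, SE 0.338, limma adjusted p = 4.23e-05). Cma1, the mast cell chymase, was likewise between 4.42 and 4.74 elsewhere and at 11.77 and 13.68 there (interaction 8.13, SE 0.755, adjusted p = 0.00604). Kit, the stem cell factor receptor on which mast cells depend, was 13.92 and 13.98 in WT and 14.55 and 15.42 in Ezh2-/- progenitors. It was 6.68 and 6.32 in WT neutrophils and 11.99 and 11.71 in those labelled Ezh2-/-, so that the fall with differentiation was 7.45 on the log2 scale in WT cells and 3.14 in the others (interaction 4.31, SE 0.411, adjusted p = 0.0067, and 0.0524 without WT undifferentiated replicate 2).

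Subunits of the IgE receptor were also among the called markers. Ms4a2, its beta chain, was 5.00 and 4.91 in WT neutrophils and 9.64 and 10.55 in those labelled Ezh2-/- (interaction 5.20, SE 0.597, adjusted p = 0.0124). Fcer1a, its alpha chain, was between 3.67 and 4.01 on the other 6 arrays and 6.90 and 8.67 on these (interaction 4.11, SE 0.704, adjusted p = 0.0416). Ms4a2 lost its call without WT undifferentiated replicate 1 (0.0747) or 2 (0.078). Fcer1a lost it without either WT undifferentiated array (0.162 and 0.172), either WT neutrophil array (0.114 and 0.0989) or either Ezh2-/- undifferentiated array (0.0625 and 0.0708). Gzmb, a granzyme that mast cells and lymphocytes make, and Mcpt2, a mast cell protease, were the other called members apart from Mcpt8, which is described with the genes that reverse. Gzmb lost its call without WT undifferentiated replicates 1 and 2 (0.0607 and 0.081), and Mcpt2 without either WT undifferentiated array (0.0892 and 0.128), either WT neutrophil array (0.0807 and 0.0643) or Ezh2-/- undifferentiated replicate 2 (0.0517).

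Not every mast cell gene had a called interaction. Hdc, which makes histamine, lay between 11.90 and 14.84 on all 8 arrays and was not called (interaction 1.84, adjusted p = 0.376). Gata2, a transcription factor of mast cells and progenitors, read 6.54 and 6.15 in WT neutrophils and 10.06 and 10.91 in those labelled Ezh2-/-, and its interaction of 2.61 missed the threshold (adjusted p = 0.0631). Prss34, a basophil protease, was higher on the arrays labelled Ezh2-/- at both stages, by 2.84 and 2.58, and had an interaction of -0.26. Tpsab1 and Tph1 were at or near background throughout. The list's count fell to 5 and 4 without WT undifferentiated replicate 1 or 2 and stayed between 7 and 11 without any other array.

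GATA factors bind the letters AGATAA in mast cell and erythroid promoters, so the promoters of these markers were searched for AGATAA on both strands. The window was 250 bases before to 50 bases after the RefSeq start (GRCm38.p6), and matches did not overlap. A match was present for 5 of 16 mast cell markers with an entry (31.2%), 6 of 13 erythroid markers (46.2%) and 12.7% of 27025 genes in the table. The promoters of Cpa3 and Ms4a2 are shown for the mast cell genes and those of Epor and Rhd for the erythroid genes described next, 5′ to 3′ on the gene's strand, with the match in capitals.
Cpa3 (chr3:20242132-20242431, minus strand): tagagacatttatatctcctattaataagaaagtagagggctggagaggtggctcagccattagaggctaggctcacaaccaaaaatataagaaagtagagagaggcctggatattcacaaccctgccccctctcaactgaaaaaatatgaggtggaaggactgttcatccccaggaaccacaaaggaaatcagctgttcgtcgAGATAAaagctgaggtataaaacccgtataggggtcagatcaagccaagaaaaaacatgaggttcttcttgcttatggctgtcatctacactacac
Ms4a2 (chr19:11623670-11623969, minus strand): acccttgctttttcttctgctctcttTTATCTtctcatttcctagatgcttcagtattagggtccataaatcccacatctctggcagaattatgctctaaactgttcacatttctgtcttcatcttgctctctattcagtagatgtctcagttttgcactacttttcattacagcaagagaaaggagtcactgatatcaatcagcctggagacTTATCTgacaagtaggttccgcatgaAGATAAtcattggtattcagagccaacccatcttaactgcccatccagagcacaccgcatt
Epor (chr9:21963527-21963826, minus strand): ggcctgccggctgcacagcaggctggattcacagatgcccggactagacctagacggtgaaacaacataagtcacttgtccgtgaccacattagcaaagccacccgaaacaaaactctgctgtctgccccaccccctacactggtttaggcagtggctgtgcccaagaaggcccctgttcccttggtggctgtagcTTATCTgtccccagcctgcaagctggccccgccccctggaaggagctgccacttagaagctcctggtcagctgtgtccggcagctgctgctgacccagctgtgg
Rhd (chr4:134864286-134864585, plus strand): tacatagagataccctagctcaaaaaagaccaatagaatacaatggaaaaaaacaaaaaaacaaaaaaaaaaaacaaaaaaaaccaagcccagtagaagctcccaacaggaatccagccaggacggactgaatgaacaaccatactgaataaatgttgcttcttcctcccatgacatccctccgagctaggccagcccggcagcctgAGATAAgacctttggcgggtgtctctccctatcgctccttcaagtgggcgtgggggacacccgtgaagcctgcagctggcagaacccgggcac
The match of Cpa3 begins at position -46 from the start, that of Epor at -54 and that of Rhd at -43, and Ms4a2 holds 3 matches. These are matches of letters and not measured sites.

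Red cell genes shared a direction. All 18 measured erythroid markers had a positive interaction, between 1.19 and 11.06, with a median of 5.50. Of these, 17 were called higher (94.4%), against 2.08% of all clusters with 1 symbol. Only 2 of the 18 were above background in each of the other 3 groups, and 17 were above it in neutrophils labelled Ezh2-/-. The exception to the calls was Icam4 (interaction 1.19, adjusted p = 0.115). Between 14 and 17 were still called with any 1 array left out.

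Car2, a carbonic anhydrase of red cells and their precursors, was bright in progenitors of both genotypes, at 15.58 and 15.51 in WT and 15.71 and 15.27 in Ezh2-/- cells. It was 6.10 and 6.17 in WT neutrophils and 17.06 and 17.23 in those labelled Ezh2-/-, 2058-fold apart (interaction 11.06, SE 0.24, limma adjusted p = 1.72e-05). Most of the list behaved otherwise, with no signal above background until the last group. Rhag, the Rh-associated ammonium channel, was between 3.98 and 4.60 on 6 arrays and 14.17 and 14.87 on the arrays labelled Ezh2-/-, at least 522-fold higher than in WT neutrophils (interaction 9.92, SE 0.342, adjusted p = 9.02e-05).

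Membrane and skeleton proteins of the red cell showed the same profile as Rhag. Aqp1, a water channel, reached 13.96 and 14.37 from at most 5.06 elsewhere (interaction 9.04, SE 0.237). Ermap, an erythroid adhesion protein, reached 13.98 and 13.94 from at most 5.43 (interaction 8.65, SE 0.197). Slc4a1, the anion exchanger band 3, reached 11.63 and 11.73 from at most 4.23 (interaction 7.51, SE 0.167). All of these calls held without any 1 array, and in each gene the arrays labelled Ezh2-/- lay far above the 6 others.

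The factors that drive the erythroid programme were dimmer. Klf1, the erythroid Krüppel-like factor, was between 4.68 and 5.26 on 6 arrays and 8.88 and 9.39 in neutrophils labelled Ezh2-/- (interaction 4.12, SE 0.314, adjusted p = 0.0031). Gata1 was between 4.30 and 5.01 on 6 arrays and 6.43 and 6.39 there (interaction 1.42, SE 0.164, adjusted p = 0.0124), and lost its call without WT undifferentiated replicates 1 and 2 (0.066 and 0.0819) or neutrophil replicate 2 labelled Ezh2-/- (0.0587). Epor, the erythropoietin receptor, was between 4.76 and 5.02 and then 7.09 and 7.34 (interaction 2.33, SE 0.197, adjusted p = 0.00457). Tfrc, the transferrin receptor of dividing and iron-using cells, differed from all these in being bright in every group, and its call was lost without any of the WT arrays or the neutrophil arrays labelled Ezh2-/- (adjusted p from 0.0819 to 0.175).

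Enzymes of haem synthesis shifted in the same direction. Of 9 measured, 7 were called higher (77.8%, against 2.08% of all clusters with 1 symbol), with a median of 2.41. Alas2, the erythroid form of the first and limiting enzyme, was between 4.59 and 5.11 on 6 arrays and 8.11 and 8.42 in neutrophils labelled Ezh2-/- (interaction 3.44, SE 0.215, adjusted p = 0.00175). Cpox, coproporphyrinogen oxidase, was 7.16 and 7.55 in WT neutrophils and 13.47 and 14.02 in those labelled Ezh2-/-, 83.9-fold apart (interaction 6.28, SE 0.439, adjusted p = 0.0025). Alas1, the form used outside red cells, was not called (interaction 1.57, adjusted p = 0.264), nor was Ppox. The count fell to 4 without either WT undifferentiated array and was 5 to 7 without any other.

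**Figure D2:**
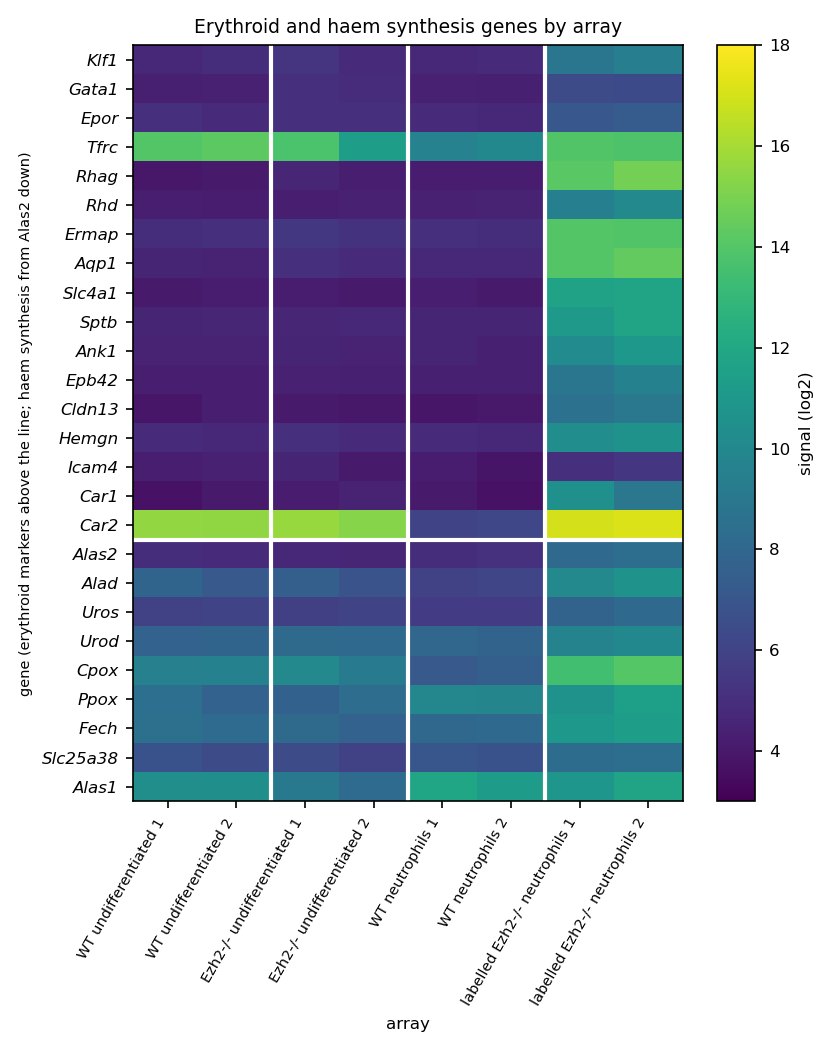
Signal (colour, log2) of 26 erythroid marker and haem synthesis genes on each of the 8 arrays, with a white horizontal line above Alas2, which is in both lists, and the haem enzymes below it. Most of the erythroid genes are dark on 6 arrays and bright on both neutrophil arrays labelled Ezh2-/-, while Car2 and Tfrc are bright in undifferentiated cells as well.

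Of 24 measured genes of DNA replication and mitosis, 21 were called higher in neutrophils labelled Ezh2-/- than in WT. The share called higher at that stage was 7.76% of all clusters with 1 symbol. All 24 had a positive interaction, from 1.63 to 4.27 with a median of 2.97. The interaction was called for 13 (54.2%), against 2.08% called higher of all clusters with 1 symbol. Mcm2, a subunit of the replicative helicase, was 13.63 and 13.42 in WT and 13.68 and 13.21 in Ezh2-/- progenitors. It was 7.72 and 8.27 in WT neutrophils and 12.04 and 11.93 in those labelled Ezh2-/-, 15.9-fold apart (interaction 4.07, SE 0.33, adjusted p = 0.00362). Cdc6, which loads that helicase, was 5.93 and 6.00 against 9.99 and 10.39 (interaction 4.18, SE 0.304, adjusted p = 0.00284), and both calls held without any 1 array.

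The list was unequal between replicates, and its count depended on single arrays. The median of its members' gaps was 1.10 between the Ezh2-/- undifferentiated arrays and 0.51 between the WT neutrophil arrays. The list's median was 12.63 and 11.2 on the former and 8.44 and 9.13 on the latter. The part of these gaps in the result was not tested. The 13 calls became 23 without Ezh2-/- undifferentiated replicate 1, 4 or 5 without either WT undifferentiated array, WT neutrophil replicate 1 or either neutrophil array labelled Ezh2-/-, and 11 without each of the rest. Mki67, the proliferation marker Ki-67, was 13.61 and 14.72 in WT neutrophils and 17.08 and 17.29 in the others (interaction 3.37, SE 0.519, adjusted p = 0.0314). Its call was lost after quantile normalization and without either WT undifferentiated array (0.139 and 0.118), either neutrophil array labelled Ezh2-/- (0.089 and 0.136) or Ezh2-/- undifferentiated replicate 2 (0.0583). In bulk RNA a larger share of dividing cells and more RNA per cell cannot be told apart.

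E2F factors drive many of these genes at the start of DNA synthesis. The letters TTTCCCGC or TTTGGCGC were found on either strand in 5 of 20 promoters of the list (25.0%) and in 1.80% of all 27025. The promoter of Mcm6, a helicase subunit with an interaction of 3.07, is shown because it holds 2 matches, in capitals.
Mcm6 (chr1:128359656-128359955, minus strand): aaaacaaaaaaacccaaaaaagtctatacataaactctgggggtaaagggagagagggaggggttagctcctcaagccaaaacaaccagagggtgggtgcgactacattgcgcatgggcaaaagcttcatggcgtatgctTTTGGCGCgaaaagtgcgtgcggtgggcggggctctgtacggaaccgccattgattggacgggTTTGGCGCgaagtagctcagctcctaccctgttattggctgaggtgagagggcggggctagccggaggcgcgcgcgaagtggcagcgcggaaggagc

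Interferon-stimulated genes were mostly above background in WT neutrophils too, 18 of 22 on both arrays. Of the 22, 9 were called higher (40.9%, against 2.08% of all clusters with 1 symbol), with a median of 2.28, and 21 had a positive interaction. Ifit1, an antiviral RNA-binding protein, lay between 4.75 and 5.39 in all undifferentiated cells. It was 6.42 and 8.06 in WT neutrophils and 12.70 and 12.65 in those labelled Ezh2-/- (interaction 5.18, SE 0.684, adjusted p = 0.0198). Usp18, which restrains interferon signalling, was 7.22 and 9.11 against 13.26 and 14.48 (interaction 6.17, SE 0.987, adjusted p = 0.0344), and Irf7, the factor that amplifies the response, was 7.32 and 8.91 against 12.11 and 12.97 (interaction 4.63, SE 0.718, adjusted p = 0.0319).

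The groups did not overlap for these 3 genes, but the replicates were far apart. By the median of the members' gaps, WT neutrophil replicate 2 was 1.11 above replicate 1, and in neutrophils labelled Ezh2-/- that gap was 0.75. The part of these gaps in the result was not tested. No member was called without either WT undifferentiated array, 1 without either neutrophil array labelled Ezh2-/-, 12 without WT neutrophil replicate 2 and 5 without Ezh2-/- undifferentiated replicate 2. Mx2, an antiviral GTPase, was the member with a negative interaction (-1.30, adjusted p = 0.379), being higher in the null by 3.80 already in progenitors.

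The interferon-stimulated response element was searched as GAAANNGAA on both strands, with overlapping matches counted. It was found in 11 of 17 promoters of the list (64.7%) and in 9.76% of all. The promoter of Ifit1 holds 3 matches, the first 2 of which overlap and run together in capitals.
Ifit1 (chr19:34640639-34640938, plus strand): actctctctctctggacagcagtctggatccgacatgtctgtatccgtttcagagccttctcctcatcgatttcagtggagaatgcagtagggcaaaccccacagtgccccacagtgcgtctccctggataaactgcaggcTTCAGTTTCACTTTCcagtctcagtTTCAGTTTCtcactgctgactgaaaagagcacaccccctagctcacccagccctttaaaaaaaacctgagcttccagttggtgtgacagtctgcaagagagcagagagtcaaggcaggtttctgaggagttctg

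Progenitor regulators split in direction. Of 20 measured, 5 were called higher and 3 lower, against 2.08% and 1.05% of all clusters with 1 symbol, with a median of 0.51. Cd34, a surface protein of progenitors, was 9.07 and 9.79 in WT neutrophils and 11.81 and 11.55 in those labelled Ezh2-/- (interaction 2.21, SE 0.346, adjusted p = 0.0324). Myb, a factor that keeps progenitors dividing, was 8.68 and 7.82 against 11.17 and 11.14 (interaction 2.80, SE 0.456, adjusted p = 0.036). Erg, a stem cell factor, went the other way, at 11.89 and 10.41 against 7.29 and 7.06 (interaction -4.21, SE 0.619, adjusted p = 0.0275). Hlf, another, differed before differentiation, at 10.12 and 9.98 in WT and 12.46 and 13.22 in Ezh2-/- cells, and was near background afterwards in both (interaction -3.07, SE 0.396). These 4 calls were each lost without either WT undifferentiated array (adjusted p from 0.0892 to 0.155) and without either neutrophil array labelled Ezh2-/- (0.0547 to 0.145). Those of Cd34 and Erg were also lost without Ezh2-/- undifferentiated replicate 2 (0.0604 and 0.0543), that of Myb without WT neutrophil replicate 2 (0.0525) and that of Hlf without its replicate 1 (0.0554).

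Among genes with an established symbol whose genotype difference was called in neutrophils only, 6 were named for the largest lower interactions. Plbd1, a phospholipase B-like granule protein, was at background on 6 arrays, between 3.94 and 4.10, and 13.32 and 11.94 in WT neutrophils alone. It was at least 155-fold lower in those labelled Ezh2-/- (interaction -8.55, SE 0.555, adjusted p = 0.00187) and held without any 1 array. Maf, a macrophage and neutrophil transcription factor, was 12.39 and 14.51 in WT neutrophils and 7.56 and 7.88 in the others, from 4.31 to 4.96 before differentiation (interaction -5.95, SE 0.875, adjusted p = 0.0275). Pla2g7, which degrades platelet-activating factor, was 11.38 and 12.32 against 6.82 and 6.57 (interaction -5.02, SE 0.413, adjusted p = 0.00397).

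Pltp, a phospholipid carrier, Lrg1, a secreted glycoprotein of neutrophil granules, and Olfml2b completed the 6 genes named in this class. Their interactions were -5.52, -5.46 and -5.34, and in WT neutrophils the replicates of Pltp and Lrg1 were more than 2 log2 units apart. The calls of Maf, Pltp, Lrg1 and Olfml2b were each lost without either WT undifferentiated array (adjusted p from 0.0805 to 0.15) and without neutrophil replicate 2 labelled Ezh2-/- (0.0715 to 0.148). Those of Maf, Pltp and Lrg1 were lost without its replicate 1 as well (0.0911 to 0.102). Pltp and Lrg1 were lost without Ezh2-/- undifferentiated replicate 1 (0.0535 and 0.0546), and Lrg1 without its replicate 2 (0.0578). Plbd1 and Pla2g7 stayed called in every such fit.

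The granule genes called lower belonged to the later granules. Of 14 secondary granule genes 3 were called lower and 1 higher, with a median of -3.45. Of 9 gelatinase and late genes 3 were called lower, with a median of -1.50. Over all clusters with 1 symbol 1.05% were called lower and 2.08% higher. Camp, the cathelicidin peptide, was 15.31 and 13.89 in WT neutrophils and 9.63 and 10.11 in those labelled Ezh2-/- (interaction -4.94, SE 0.641, adjusted p = 0.0185). Ltf, lactoferrin, was 18.38 and 17.66 against 15.81 and 16.26, and Cd177, a surface and granule protein, 12.48 and 10.70 against 7.25 and 6.98. The interaction of Ltf (-4.20) also held a higher signal in Ezh2-/- progenitors, by 2.21, which was not called (limma adjusted p = 0.0742). The progenitor difference of Hpse, described next, was -2.40 and was not called either (0.0912). Hpse, heparanase, was 13.12 and 13.91 against 6.21 and 7.70 (interaction -4.15, SE 0.701, adjusted p = 0.0401), and lost its call without any array (0.0509 to 0.176) except neutrophil replicate 2 labelled Ezh2-/-.

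By the genotype difference in neutrophils alone, 6 of the 14 secondary granule genes and 4 of the 9 gelatinase and late genes were called lower. The share called lower at that stage was 4.27% of all clusters with 1 symbol. Lyz2, lysozyme, was 19.26 and 19.35 in WT neutrophils and 19.15 and 19.29 in the others (interaction -0.27, adjusted p = 0.939). These values lie close to the highest signal on each neutrophil array, from 19.46 to 19.63, where a difference may not show. Stfa2l1, a stefin, had an interaction of -5.08 that missed the threshold (adjusted p = 0.0808), from 4.60 and 4.14 in WT against 10.60 and 7.86 in Ezh2-/- progenitors. By the median of the members' gaps, the secondary granule list was 1.14 apart between the Ezh2-/- undifferentiated arrays and 0.75 between the WT neutrophil arrays. The gelatinase list was 1.09 apart between the WT neutrophil arrays by that measure. Their part in the result was not tested. No secondary granule gene was called lower without either WT undifferentiated array or either neutrophil array labelled Ezh2-/-, and 5, 5 and 6 were without WT neutrophil replicate 2 and Ezh2-/- undifferentiated replicates 1 and 2. The gelatinase count was 1 without either undifferentiated array of either genotype or without neutrophil replicate 1 labelled Ezh2-/-.

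No primary granule gene passed limma's adjusted threshold, while 5 of 10 had an unadjusted p under 0.05, all of them higher, against 9.61% of all clusters with 1 symbol, and the median was 1.70. Without Ezh2-/- undifferentiated replicate 1, 4 were called. Mpo, myeloperoxidase, was 17.71 and 17.45 in WT and 17.16 and 16.79 in Ezh2-/- progenitors, 7.34 and 7.40 in WT neutrophils and 12.03 and 9.66 in those labelled Ezh2-/- (interaction 4.09, adjusted p = 0.0955). Ms4a3, a granulocyte progenitor marker, was 14.64 and 14.87 against 9.16 and 6.62 before differentiation and 7.51 and 6.78 against 6.26 and 5.30 after it (interaction 5.50, adjusted p = 0.0654). The median of the members' gaps was 0.53 between the Ezh2-/- undifferentiated arrays and 0.66 between the neutrophil arrays labelled Ezh2-/-. The list's median was 12.18 and 11.14 on the former and 9.74 and 8.07 on the latter.

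Of phagocyte oxidase genes 33.3% were called and of recognition receptors 18.2%, against 3.13% of all clusters with 1 symbol. Cybb, the catalytic subunit of the phagocyte oxidase, was 17.42 and 17.11 in WT neutrophils and 15.13 and 14.61 in the others (interaction -2.72, SE 0.366, adjusted p = 0.0208), and Hvcn1, its proton channel, was the second of 2 called lower among 6 oxidase genes. Of 22 recognition receptors 2 were called higher, Clec7a and Clec4d, both C-type lectins, and 2 lower, Tlr7 and Tlr8, endosomal receptors for single-stranded RNA, with a median of -0.14. Clec4d was 11.40 and 12.54 in WT and 9.17 and 8.52 in Ezh2-/- progenitors (interaction 3.76, adjusted p = 0.0441) and lost its call without any array but Ezh2-/- undifferentiated replicate 1 (0.0711 to 0.14). The interactions of Tlr7 and Tlr8 were -2.38 and -2.20. Tlr7 was 13.51 and 13.69 in WT neutrophils and 10.87 and 10.79 in the others. Cybb lost its call without either WT undifferentiated array (0.0965 and 0.115), WT neutrophil replicate 1 (0.0707) or neutrophil replicate 2 labelled Ezh2-/- (0.0802). Tlr7 lost it without either WT undifferentiated array (0.0664 and 0.0841) or that last array (0.0693), and Tlr8 without either WT undifferentiated array (0.0987 and 0.121) or WT neutrophil replicate 1 (0.0766). Hvcn1 lost it with quantile normalization, a replicate block or a trended prior, and without any array but Ezh2-/- undifferentiated replicate 2 (0.0527 to 0.194).

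**Figure D3:**
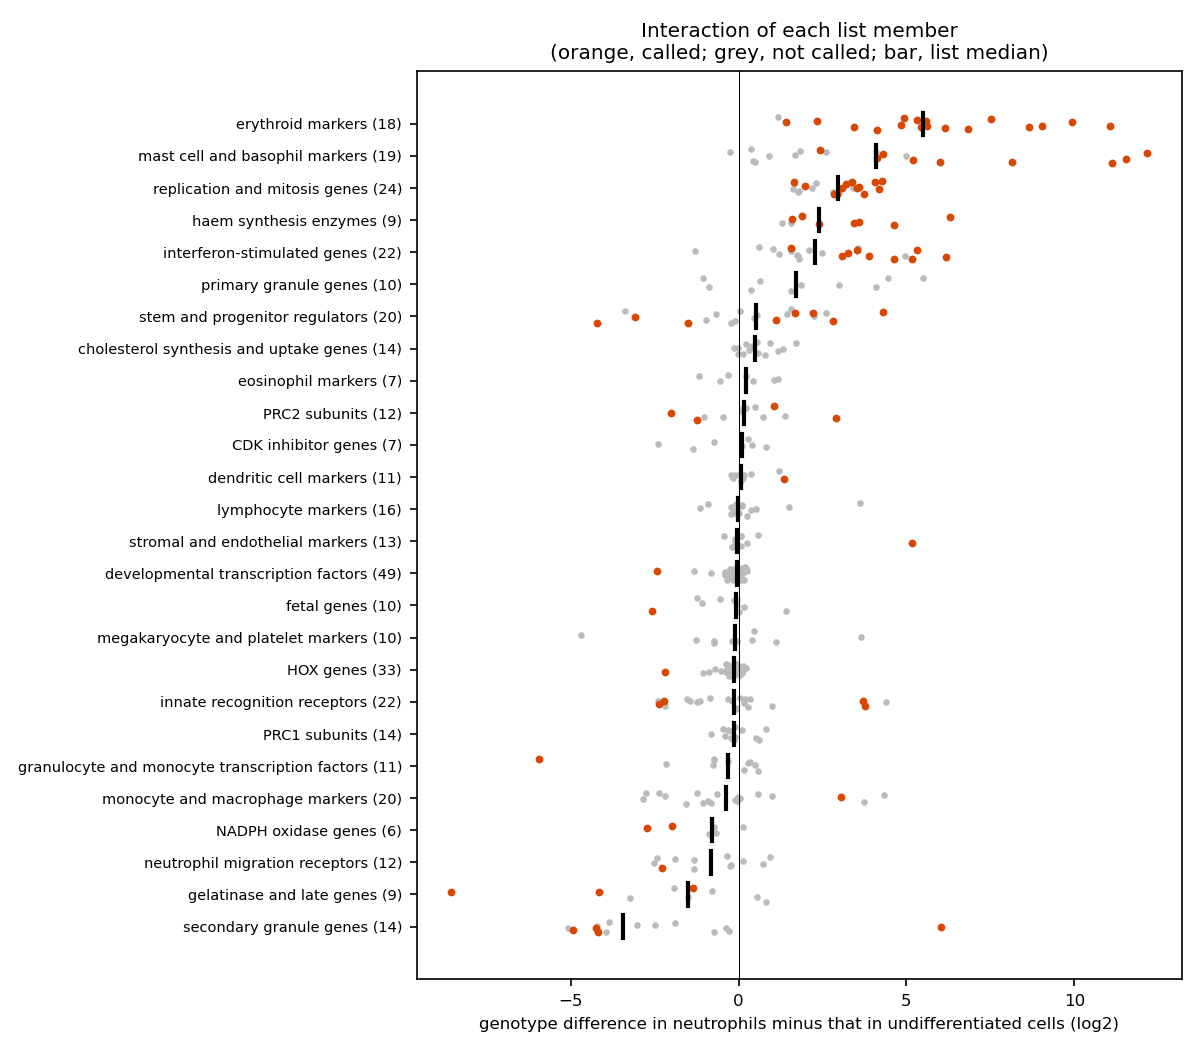
Interaction (x axis, log2) of each measured member of the 26 gene lists, with the number measured in parentheses, sorted by list median. Orange points have an adjusted p under 0.05, grey points do not, and black bars are list medians. The erythroid list has the highest median, 5.50, and the secondary granule list the lowest, -3.45.

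Fewer genes had a genotype difference called in undifferentiated cells only. Angptl7, a secreted angiopoietin-like protein, was 12.96 and 13.32 in Ezh2-/- progenitors and between 4.29 and 4.81 on the 6 other arrays, at least 208-fold above WT progenitors (interaction -8.55, SE 0.239, limma adjusted p = 3.64e-05). Slc16a12, a monocarboxylate family transporter, had the same profile at 8.54 and 9.27 against at most 4.39 (interaction -4.73, SE 0.406, adjusted p = 0.00469). Both calls held without any 1 array. Cited1, a transcriptional coactivator, was 11.74 and 9.92 there and at most 5.36 elsewhere (interaction -5.41, SE 0.724, adjusted p = 0.0205), and lost its call without any 1 array of the other 3 groups (adjusted p from 0.0533 to 0.113).

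For Slc2a3 and Actn1 the signal rose in both genotypes and by more in WT cells. Slc2a3, a glucose transporter, was 7.20 and 7.05 in WT and 10.87 ± 0.18 (mean and SD of 2) in Ezh2-/- progenitors, then 14.62 and 13.35 in WT neutrophils and 13.07 and 12.51 in the others (interaction -4.94, SE 0.572, adjusted p = 0.0127). Actn1, an actin crosslinker, was 6.29 and 6.08 against 10.57 and 9.74, then 14.38 and 13.10 against 13.36 and 12.61 (interaction -4.72, SE 0.678, adjusted p = 0.0255). In neutrophils the groups overlapped for Actn1 and not for Slc2a3. Without either WT undifferentiated array or neutrophil replicate 2 labelled Ezh2-/- both calls were lost (adjusted p from 0.0627 to 0.129), and that of Actn1 also without its replicate 1 (0.0536).

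Mmp8, the neutrophil collagenase, had the largest interaction among named genes called lower in undifferentiated Ezh2-/- cells only. It was 12.48 and 11.55 in WT and 6.10 and 5.08 in Ezh2-/- progenitors, 86.0-fold apart, and reached 18.35 and 17.57 in WT neutrophils and 18.16 and 16.97 in the others (interaction 6.03, SE 0.78, adjusted p = 0.0184, and 0.088 and 0.0678 without WT undifferentiated replicates 1 and 2). It was the secondary granule gene called higher. Pecam1, an adhesion molecule of endothelium and leukocytes, was 12.16 and 12.32 in WT and 7.35 and 6.23 in Ezh2-/- progenitors and between 6.57 and 7.02 in all neutrophils (interaction 5.17, SE 0.473, adjusted p = 0.00595). All neutrophils were near the level of the null progenitors.

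Slc35d3, a nucleotide sugar transporter family member, Efna5, an ephrin ligand, and Igll1, a surrogate light chain of early B cells, had the profile of Pecam1. Their interactions were 5.52, 4.89 and 4.03. Igll1 was 7.75 and 7.96 in WT progenitors and between 3.38 and 4.13 on the 6 other arrays. Efna5 was 7.05 and 4.89 on the Ezh2-/- undifferentiated arrays, and its call (adjusted p = 0.0456) was lost after quantile normalization and without any 1 array of the other 3 groups (0.108 to 0.18).

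**Figure D4:**
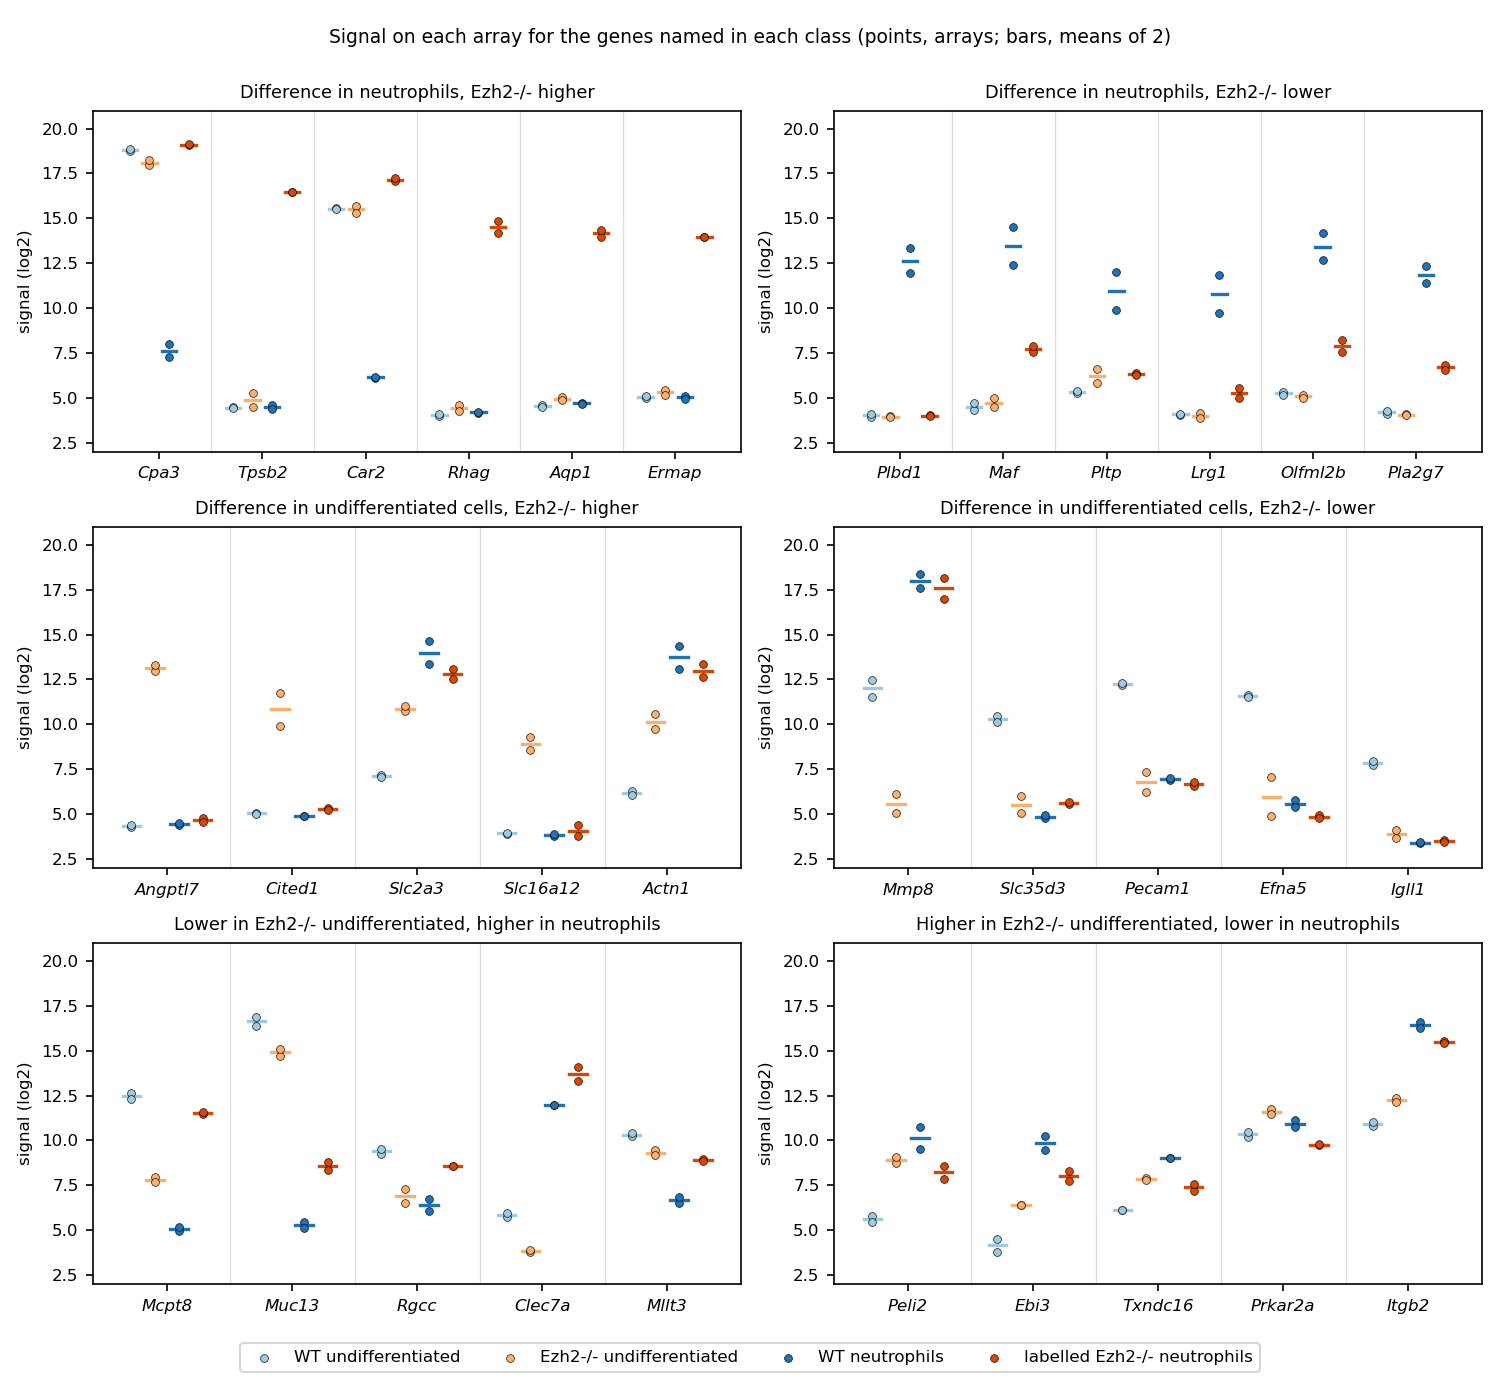
Signal (y axis, log2) on each of the 8 arrays for the genes named in 6 classes, with points for arrays and bars for means of 2. The upper panels show genes that differ in neutrophils, the middle panels genes that differ in undifferentiated cells and the lower panels genes whose difference reverses. Points of the neutrophils labelled Ezh2-/- stand above all other groups for Tpsb2, Rhag, Aqp1 and Ermap.

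The largest reversal was that of Mcpt8, a serine protease of basophils. It was 12.62 and 12.34 in WT and 7.95 and 7.67 in Ezh2-/- progenitors, 25.5-fold lower in the null. In neutrophils it was 4.98 and 5.17 on the WT arrays, at background, and 11.46 and 11.58 on the arrays labelled Ezh2-/-, at least 65.2-fold higher (interaction 11.11, SE 0.233, limma adjusted p = 1.72e-05). WT cells lost the transcript on differentiation, by 7.40 on the log2 scale, and in the cells labelled Ezh2-/- the signal rose by 3.71.

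Other genes turned from lower to higher with smaller steps. Muc13, a membrane mucin, was 16.38 and 16.90 in WT and 14.73 and 15.08 in Ezh2-/- progenitors, and 5.45 and 5.11 against 8.78 and 8.34 in neutrophils (interaction 5.02, SE 0.357). Rgcc, a cell cycle regulator, was 9.26 and 9.53 against 7.28 and 6.54, then 6.71 and 6.06 against 8.60 and 8.58 (interaction 4.69, SE 0.425). Mllt3, a chromatin reader of stem cells, had an interaction of 3.22, and its genotype difference in progenitors (adjusted p = 0.0465) was close to the threshold. Clec7a, the beta-glucan receptor dectin-1, was below background in Ezh2-/- progenitors and 13.30 and 14.12 in neutrophils labelled Ezh2-/- against 11.99 ± 0.02 (mean and SD of 2) in WT (interaction 3.71, SE 0.368, adjusted p = 0.00754, and 0.0568 without WT undifferentiated replicate 2).

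The opposite turn, from higher to lower, was seen for Peli2, Ebi3, Txndc16, Prkar2a and Itgb2. Peli2, a ubiquitin ligase of Toll-like receptor signalling, was 5.78 and 5.47 in WT and 8.75 and 9.06 in Ezh2-/- progenitors, then 10.73 and 9.50 against 8.58 and 7.86 (interaction -5.17, SE 0.593, adjusted p = 0.0123). Itgb2, the beta-2 integrin that neutrophils need to adhere, was 10.79 and 11.05 against 12.38 and 12.13, then 16.57 and 16.28 against 15.57 and 15.41 (interaction -2.28, SE 0.243, adjusted p = 0.00971). The genotypes did not overlap at either stage for either gene. Txndc16 stayed called without any 1 array, and the other 4 were lost without 2 or 3 of them (adjusted p from 0.0502 to 0.0806).

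Genes that differed in the same direction at both stages, to unequal extents, included Adgrg7, an adhesion receptor, and Hk3, the hexokinase of myeloid cells. Adgrg7 was 12.23 and 12.44 in WT progenitors and between 3.90 and 5.03 on the 6 other arrays (interaction 7.24, SE 0.234, adjusted p = 6.95e-05), so its call in neutrophils was at background. Hk3 was 13.10 and 12.68 against 7.33 and 6.65 in progenitors and 12.74 and 12.20 against 9.48 and 10.34 in neutrophils, and its call (adjusted p = 0.0323) was lost without any array (0.0548 to 0.143) except replicate 1 of Ezh2-/- undifferentiated cells and of neutrophils labelled Ezh2-/-. Slc43a1, an amino acid transporter, and Pabpc4, a poly(A)-binding protein, were higher on the arrays labelled Ezh2-/- at both stages and by more in neutrophils, with interactions of 3.20 and 3.37. Laptm4b and Ncam1 were higher on those arrays at both stages and by less in neutrophils, and Ncam1 lost its call without WT undifferentiated replicates 1 and 2 (0.0519 and 0.0527).

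Of 12 PRC2 subunits, Ezh2 and Suz12 were called higher and Ezh1 and Phf1 lower (33.3% called, against 3.13% of all clusters with 1 symbol). Ezh1 was between 9.31 and 9.55 in all progenitors, 12.22 and 12.04 in WT neutrophils and 11.03 and 10.79 in those labelled Ezh2-/- (interaction -1.24, SE 0.214, adjusted p = 0.0427). Suz12, a core subunit, was between 11.85 and 11.94 in all progenitors, 10.35 and 10.45 in WT neutrophils and 11.44 and 11.56 in the others (interaction 1.07, SE 0.169, adjusted p = 0.033). The Ezh2 call held without any 1 array, while that of Suz12 was lost without any of the 8 (0.0505 to 0.152). That of Ezh1 was lost without any array but Ezh2-/- undifferentiated replicate 1 (0.0699 to 0.181), and that of Phf1 without any but this array and WT neutrophil replicate 2 (0.0792 to 0.197).

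In families that Polycomb silences in many cells, the shares called were 3.03% of 33 HOX genes and 2.04% of 49 developmental transcription factors, near the 3.13% of all clusters with 1 symbol. The HOX gene called was Hoxc10, at 6.16 and 5.80 in Ezh2-/- progenitors and between 3.46 and 3.95 on the 6 other arrays (interaction -2.18), and the developmental factor was Foxa1, at 8.73 and 7.97 in Ezh2-/- progenitors (interaction -2.43). Lin28b, a fetal RNA-binding protein, was higher there by 3.72, from 4.24 and 4.31 in WT, and 5.56 and 5.14 against 4.36 and 4.01 in neutrophils (interaction -2.56, SE 0.261, adjusted p = 0.00835). Lin28b lost its call without WT undifferentiated replicates 1 and 2 (0.0581 and 0.0576). Hoxc10 lost it without either WT undifferentiated or WT neutrophil array (0.0533 to 0.0957) or neutrophil replicate 2 labelled Ezh2-/- (0.0875), and Foxa1 without any array but those of Ezh2-/- undifferentiated cells (0.0599 to 0.126). No gene of the CDK inhibitor list passed limma's threshold for the interaction, and 0 of 7 had an unadjusted p under 0.05. Cdkn2a, a cell cycle brake that PRC2 is known to silence, was higher on the arrays labelled Ezh2-/- at both stages, by 1.55 and 2.35 (interaction 0.80, adjusted p = 0.396).

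Markers of other blood and tissue cells were measured beside these groups. No eosinophil marker (2 of 7 at an unadjusted p under 0.05), megakaryocyte marker (3 of 10) or lymphocyte marker (4 of 16) passed limma's adjusted threshold. Over all clusters with 1 symbol 17.5% had an unadjusted p under 0.05. Epx, eosinophil peroxidase, was between 3.63 and 4.60 on all 8 arrays, and Cd3e, of the T cell receptor complex, between 3.41 and 3.93. Other eosinophil markers differed from Epx. In neutrophils 3 of the 7 were called higher and 0 lower with the null label, against 7.76% and 4.27% of clusters with 1 symbol. Of 20 monocyte and macrophage markers 1 was called (5.0%), near the 3.13% of all clusters with 1 symbol. It was Mpeg1, from 8.10 and 7.58 against 4.13 and 3.93 in progenitors to 16.09 and 16.50 against 15.72 and 15.38 in neutrophils. With the null label 5 of the 20 were called lower in neutrophils and 0 higher, against 4.27% and 7.76% of clusters with 1 symbol. Csf1r, the receptor that defines that lineage, was 14.66 and 15.90 in WT neutrophils and 13.75 and 13.03 in the others. The list's median was 7.95 and 9.75 on the WT neutrophil arrays, and the median of its members' gaps between them was 0.70. Csf3r, the receptor for granulocyte colony-stimulating factor, was 15.56 and 14.96 in WT neutrophils and 15.50 and 13.46 in those labelled Ezh2-/- (interaction -2.41, adjusted p = 0.269), so the receptor was above background in both kinds.

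WT neutrophils given GSK343 offered a comparison on arrays outside these 8, made after the classes were known and described without a test. A gene counted as shifted where both GSK343 arrays lay on the same side of both vehicle arrays and the means differed by at least 1 log2 unit, which held upward for 0.519% and downward for 0.141% of clusters with 1 symbol. The next counts cover 452 clusters called in neutrophils only and higher with the null label. They had an established symbol, an interaction of at least 1 log2 unit, a group above background and no overlap of the genotypes in neutrophils. Of these, 10 were shifted upward (2.21%) and 1 downward. Of the 169 chosen likewise but lower with the null label, 0 were shifted upward and 1 downward (0.592%), with a median GSK343 minus vehicle difference of -0.06. Of those called in undifferentiated cells only and not overlapping there, 77 were higher and 55 lower in the null. In each of these 2 sets 0 were shifted upward and 1 downward. The shares over all clusters with 1 symbol include clusters at background, so the sets are unlike. Cpa3 was 2.99 higher with GSK343, Muc13 1.23 and Mcpt8 1.07, while Plbd1 was lower by 2.43 and Mmp8 by 3.90. By list, 3 of 19 mast cell markers, 4 of 7 eosinophil markers and 3 of 10 primary granule genes were shifted upward, 5 of 9 gelatinase and late genes downward, and none of the 18 erythroid markers in either direction.

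**Figure D5:**
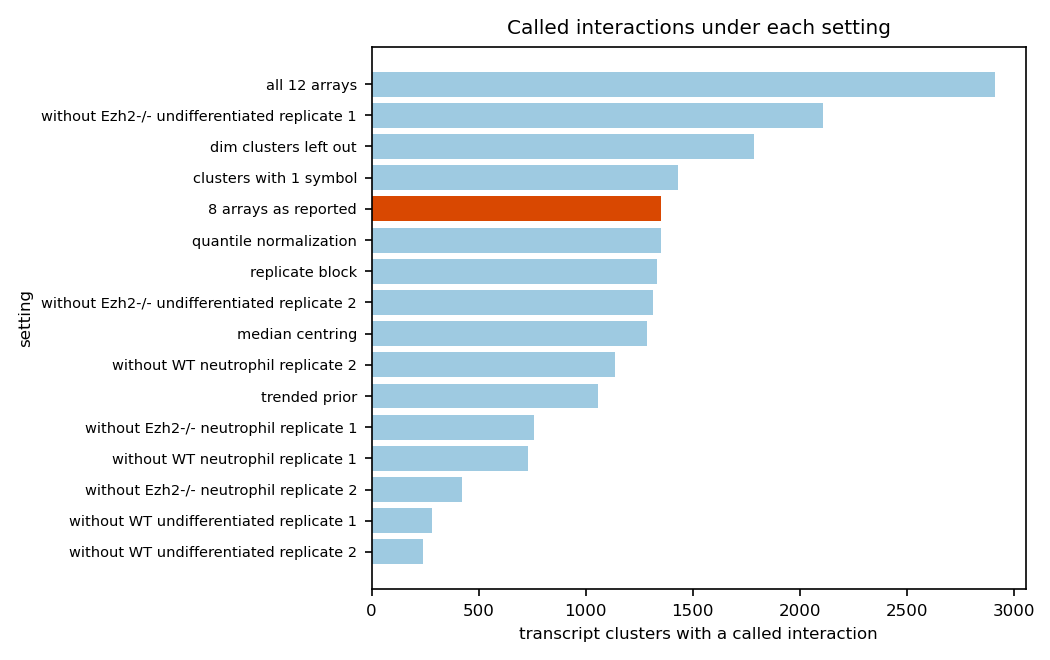
Number of transcript clusters with a called interaction (x axis) under each setting (y axis), with the value reported here in orange. The count is 240 without WT undifferentiated replicate 2 and 2911 when all 12 arrays enter the fit.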

How the data were processed

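Total RNA (250 ng) of each sample was hybridised to the Mouse Transcriptome Array 1.0 of Affymetrix, as the labels state. Values were deposited by the authors on a log2 scale, 1 per cluster or control probe set. Expression Console and Transcriptome Analysis Console stand in the submitters' processing notes. Software versions, summarisation, background correction and genome build were not given in the sources used here.

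Of 72688 entries 6732 control probe sets were left out. Symbols came from the platform annotation, updated by Entrez ID for 23430 clusters. 31216 clusters had 1 symbol, 1534 several and 33206 none. With limma 3.58.1 in R 4.3.3, 4 group means were fitted to the 8 arrays, leaving 4 residual degrees of freedom, and contrasts were tested with lmFit and eBayes. The 8 arrays had medians of 4.54 to 4.65 and the 4 GSK343 and vehicle arrays 3.88 to 3.96, so levels were not compared between these sets. The fit was tested on simulated data. The number of arrays limits the precision. The samples were not paired by replicate number, since the labels do not say what the numbers stand for. Over all clusters the correlations of same-numbered deviations between groups ran from -0.109 to 0.185.

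Members and lists were chosen with earlier results of these data known. Named genes are Ezh2, the 6 largest interactions in each class called in neutrophils only and the 5 largest in each other class among genes above background with an established symbol (provisional names such as those ending in Rik left out) whose genotypes did not overlap, and called or defining members of the lists. Alternatives were the 12-array fit, 1-symbol clusters, dim clusters left out, median centring, quantile normalization, a replicate block, a trended prior, a limit on the difference at the uncalled stage, and each array left out.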

Additional observations from a re-analysis of the deposited data

Results flagged for a closer look

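The genotype difference differed between stages, by limma's test of the interaction itself, for 1352 clusters. Among genes whose difference reversed, the interaction was 11.11 for Mcpt8, 5.02 for Muc13, 4.69 for Rgcc, 3.71 for Clec7a and 3.22 for Mllt3, which turned from lower to higher on the arrays labelled Ezh2-/-. It was -5.17 for Peli2, -4.04 for Ebi3, -3.41 for Txndc16, -2.41 for Prkar2a and -2.28 for Itgb2, which turned from higher to lower.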

How the results depend on the processing

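All 43 genes named by class kept the sign of their interaction under every alternative, and 24 to 41 stayed called without 1 array. With all 12 arrays in the fit, the called interactions numbered 2911 (1824 higher, 1087 lower, 2616 at least 2-fold), and the genotype effect in undifferentiated cells was called for 1969 clusters. In that fit 1417 clusters were called higher and 684 lower in neutrophils only, and 229 higher and 226 lower in undifferentiated cells only. It gave 70 reversed, 181 of the same sign and 104 at neither stage. The number at neither stage was 37 among clusters with 1 symbol, 50 with dim clusters left out and 13 with a trended prior, which gave 12 reversed. The replicate block gave 1332 called interactions, of which 1077 were among the 1352. Whether the replicate numbers pair the samples is not stated.

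Without 1 array the called interactions ranged from 240 to 2109 (186 to 1300 higher, 54 to 809 lower, 240 to 2108 at least 2-fold). The genotype effect was called for 1769 to 7619 clusters in neutrophils and 248 to 1469 in undifferentiated cells. Clusters called in neutrophils only ranged from 153 to 980 higher and 31 to 477 lower, and in undifferentiated cells only from 18 to 209 higher and 27 to 185 lower. Reversed clusters ranged from 2 to 74, those of the same sign from 6 to 109 and those at neither stage from 1 to 75. Where a group was left with 1 array, it was assumed to vary like the other groups. Signals near array background limit what can be said of dim genes.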

Other observations

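The clusters without a gene symbol were not described above. They made up 50.3% of those tested and 23.6% of those with a called interaction, against 47.3% and 72.3% for clusters with 1 symbol.

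Of the 540 clusters with 1 symbol that were higher in neutrophils labelled Ezh2-/- and called at that stage only, 95 were above background on both of those arrays and on none of the 6 others. A further 21 were above background in every group but WT neutrophils, and 354 were above it on all 8 arrays. Of the 189 that were lower, 17 were above background in WT neutrophils alone and 14 in both kinds of neutrophil. Of the 89 called higher in undifferentiated Ezh2-/- cells only, 33 were above background in that group alone. Of the 71 called lower, 15 were above it in WT undifferentiated cells alone. These counts were made after the classes were known and carry no test.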
